A study of Mus musculus with 8 samples.

Results

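The Bcl2 family sets the threshold of apoptosis at the mitochondrion, and 10 of its genes were followed here in crypt epithelium of the mouse intestine. They were taken by gene symbol from the 29037 genes of the deposited table, and were chosen with earlier results of these data known. Bcl2, Bcl2l1 and Mcl1 encode antiapoptotic proteins and Bak1 encodes a pore-forming effector. Bid, Bcl2l11, Bik and Bmf encode BH3-only proteins, and Bcl2l14 and Bcl2l15 are members whose function is less settled. The mice were 8 weeks old, 4 carrying a conditional knockout of Tdp-43 (cKO) and 4 being littermates labelled WT (Ctrl), with 1 RNA library per mouse from crypts freed with EDTA. The sources used here do not give the Cre driver, the deleted part of Tardbp or the stretch of gut.

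Once activated, the effectors Bak1 and Bax open the outer mitochondrial membrane and release cytochrome c, which with Apaf1 switches on caspase-9. Antiapoptotic members hold the effectors and the BH3-only proteins in check, while BH3-only proteins carry stress signals into the family by binding both. In mouse intestinal epithelium, Mcl1 and Bcl2l1 (whose main product is Bcl-xL) are known as survival factors, and crypt cells are known for p53-dependent apoptosis after DNA damage.

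Libraries held 21517596 to 29992110 recovered reads on genes, and the first principal component, with 36.9% of the variance, separated the groups. Tardbp, the gene of TDP-43, averaged 11982 ± 1013 normalized counts in the libraries labelled cKO and 5666 ± 772 in Ctrl libraries (SD, n = 4 each), so it was higher and not lower. This value covers the whole gene and checks nothing about the deleted part, so each direction below is between groups as labelled. The 7 epithelial markers summed to 302585 to 360153 normalized counts in libraries labelled cKO and 300858 to 360796 in Ctrl libraries, with Krt8 the largest term. Of these, Krt18 and Krt20 were called higher (log2 fold changes 0.48 and 0.60, limma adjusted p = 0.0435 and 0.0322), and Epcam, Cdh1, Krt8, Vil1 and Cdx2 were not called. Of 6 neutrophil markers 5 were called higher and Cxcr2 was not (limma adjusted p = 0.147), while 5.65% of all tested genes were called higher. Without Ly6g, which has close paralogs, the remaining 5 summed to 88.7 to 1554 normalized counts in libraries labelled cKO and 4.87 to 119 in Ctrl libraries. In cKO replicate 4 S100a8 and S100a9 had 519 and 601 normalized counts, against at most 84.9 and 79.4 in the other libraries labelled cKO. Of these 6 markers, 4 were at 0 in at least 1 library (S100a8, S100a9, Cxcr2 and Retnlg). The part of these cells in the results below was not tested.

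A normalized count is a gene's read count divided by 1 factor per library, as deposited. A gene was tested if it averaged at least 10 over the 8 libraries, and was called if the Benjamini-Hochberg adjusted p of limma over the 16536 tested genes was under 0.05. Fold changes are cKO over Ctrl on the log2(value + 1) scale.

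Of the 9 members that passed the filter on low values, Bcl2l1 rose and 0 fell. At an unadjusted limma p under 0.05, 1 member was higher and 1, Bmf, was lower, against 2275 and 2395 of the 16536 tested genes. Among the members edgeR and DESeq2 each called 1 higher and 0 lower. Over all tested genes edgeR called 988 higher and 914 lower, and DESeq2 called 1509 and 1492. The shares that follow are those of limma after adjustment. Over all tested genes 5.65% were called higher and 6.07% lower, 11.7% in either direction, so that 1 of 9 is a share near the background. Of the 9 tested members, 1 (Bcl2l1) had groups that did not overlap, against 19.9% of all tested genes, 9.54% upward and 10.3% downward. The median log2 fold change was 0.05 over the 9 tested members and -0.01 over all tested genes. With the deposited scaling 935 genes were called higher and 1004 lower, whereas scaling to library totals gave 1327 and 739.

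**Figure D1:**
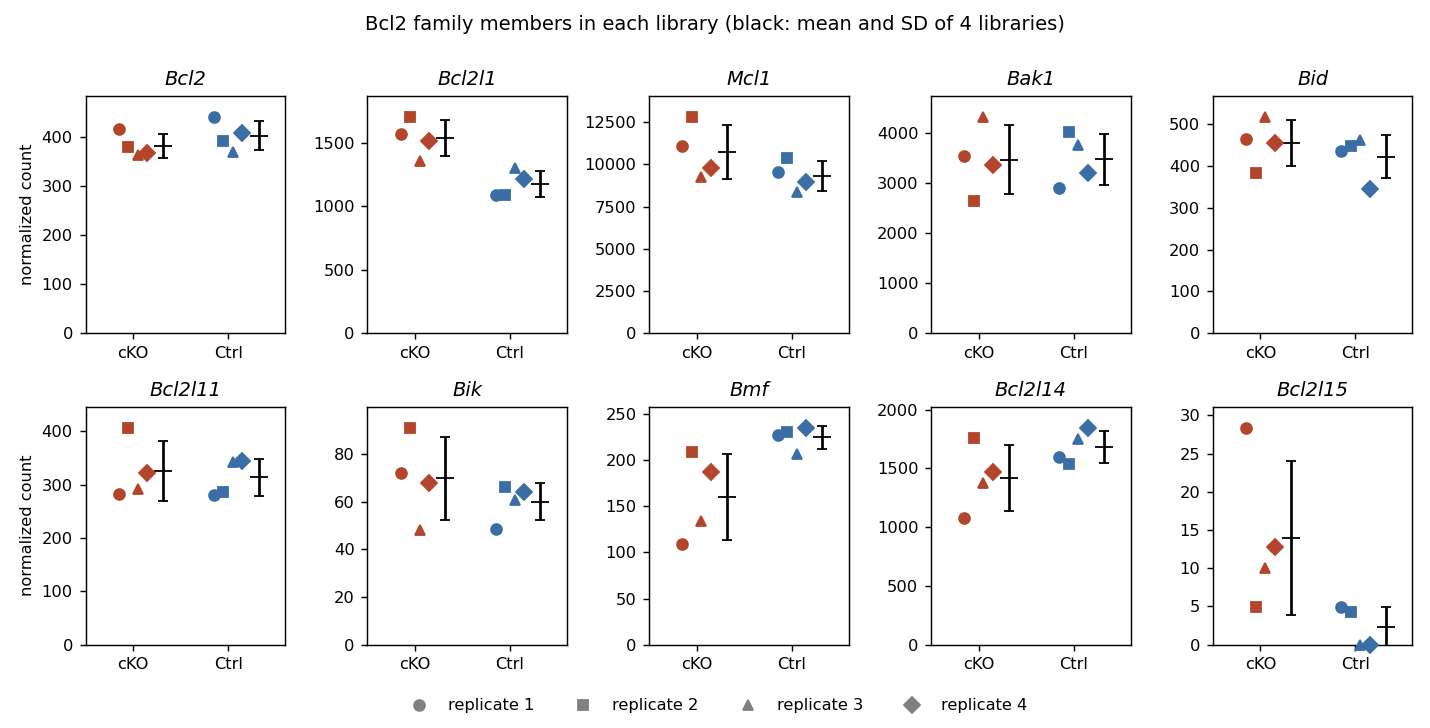
Normalized counts of the 10 members in each library, with cKO left of Ctrl, 1 symbol per replicate and the mean ± SD of 4 libraries in black; every axis starts at 0. For Bcl2l1 all 4 libraries labelled cKO (1354 to 1702) lie above all 4 Ctrl libraries (1086 to 1301), whereas Bcl2 and Bak1 show overlapping groups.

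Per 1000 bases of gene length, Mcl1 was the most abundant member at 3141 ± 461 normalized counts in libraries labelled cKO and 2724 ± 254 in Ctrl libraries (SD, n = 4 each). Bak1 followed with 1436 ± 286 in libraries labelled cKO and 1440.1 ± 211 in Ctrl libraries. Among all genes with a mean above 0 in the same group, ranked by per-length level, Mcl1 stood at percentile 98.6 in libraries labelled cKO and 98.3 in Ctrl libraries, and Bak1 at 96.5 in libraries labelled cKO and 96.3 in Ctrl libraries. Next came Bcl2l14 and Bcl2l1, whose per-length levels overlapped in the libraries labelled cKO (263 to 430.2 and 295 to 371) but not in Ctrl libraries (377 to 449.9 and 237 to 284).

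Bid had a per-length level of 128 ± 15.5 in libraries labelled cKO and 119 ± 14.7 in Ctrl libraries. Bcl2, Bmf, Bcl2l11 and Bik had neighbouring levels. Their group means lay between 30.5 and 43.8 in libraries labelled cKO and between 37.6 and 44.0 in Ctrl libraries. Bmf was the lowest of this set in every library labelled cKO, while in every Ctrl library it was above Bik. Bcl2l15 was lowest, at 5.16 ± 3.71 in libraries labelled cKO and 0.835 ± 0.970 in Ctrl libraries. Among the 3 antiapoptotic members, Mcl1 made up 89.2% ± 0.647 of the summed per-length level in libraries labelled cKO and 90.0% ± 1.44 in Ctrl libraries. Among the 4 BH3-only members, Bid held the largest share, 53.0% ± 8.06 in libraries labelled cKO and 49.8% ± 4.44 in Ctrl libraries. The share of Bmf within them was 8.97% to 15.63% in libraries labelled cKO, narrowly below its 15.72% to 19.8% in Ctrl libraries. These shares are given without a test.

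**Figure D2:**
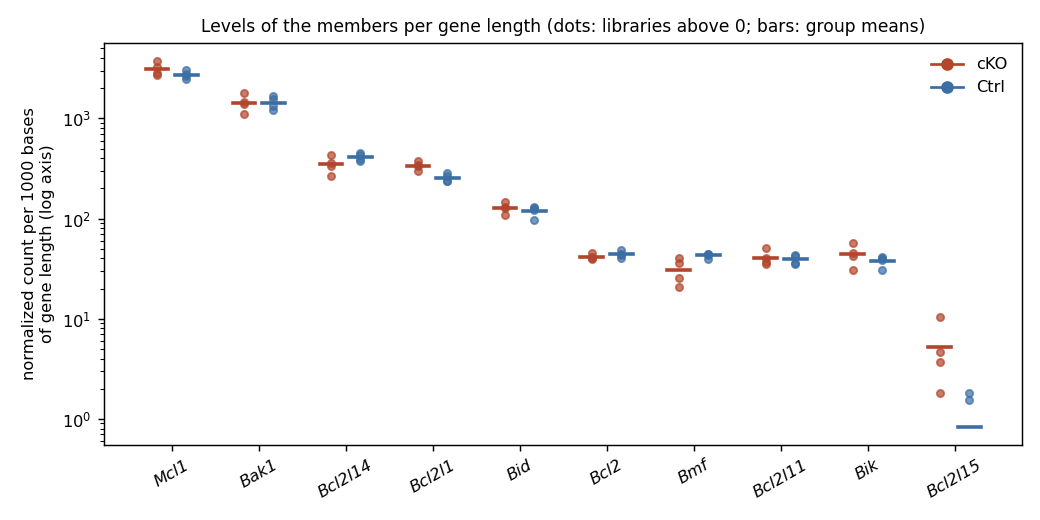
Level of each member per 1000 bases of gene length on a log axis, in libraries labelled cKO (left of each pair) and Ctrl libraries (right), with dots for libraries above 0 and bars for group means. Mcl1 (3141 in cKO, 2724 in Ctrl) and Bak1 (1436 in cKO, 1440.1 in Ctrl) stand above the other members, and Bcl2l15 stands lowest.

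Among the antiapoptotic members, Bcl2l1 was higher in the libraries labelled cKO. Bcl2l1 (ENSMUSG00000007659, GRCm38 chromosome 2, 152780668 to 152831728, minus strand) had 1573, 1702, 1354 and 1517 normalized counts in libraries labelled cKO 1 to 4, against 1086, 1090.1, 1301 and 1218 in Ctrl libraries 1 to 4. All 4 libraries labelled cKO were above all 4 Ctrl libraries, the closest pair being cKO replicate 3 and Ctrl replicate 3. The log2 fold change was 0.39 ± 0.10 (SE, limma adjusted p = 0.0354), a 1.31-fold difference with a 95% interval of 1.12 to 1.52. In the authors' deposited table the log2 fold change of Bcl2l1 was 0.39 with an adjusted p of 0.0105. The call was kept without cKO replicate 2 or 3. It was lost without cKO replicate 1 (limma adjusted p = 0.0857) or 4 (0.0784) and without Ctrl replicate 1 (0.0922), 2 (0.0913), 3 (0.0533) or 4 (0.0731), with log2 fold changes of 0.34 to 0.45 over all 8 such fits. With no filter on low values it was lost as well (0.0567).

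Bcl2l1 has 3 annotated start sites with promoter windows in RefSeq (GRCm38.p6), and the window of the middle one is shown because it alone of the 3 held any of the 7 motifs searched, the NF-kB consensus. The window chr2:152830668-152830967, minus strand, runs from 250 bases before the start site to 50 after it, with the match in capitals from position -242.
Bcl2l1 promoter window: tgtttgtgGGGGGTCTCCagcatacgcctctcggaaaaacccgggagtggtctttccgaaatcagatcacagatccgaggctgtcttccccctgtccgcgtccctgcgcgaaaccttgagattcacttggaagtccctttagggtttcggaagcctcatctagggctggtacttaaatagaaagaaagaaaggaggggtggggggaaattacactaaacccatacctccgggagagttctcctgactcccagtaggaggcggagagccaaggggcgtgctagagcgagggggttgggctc
On either strand, 4.51% of 32851 promoter windows of this length held such a match, which is a description of letters and not of binding. The windows of the 9 members with a matched entry (all but Bik) were also searched for TTCNNNGAA (STAT), TGANTCA (AP-1), TGACGTCA (CRE), CACGTG (E-box), GTAAACA (FOXO) and a p53 half-site, which are held by 8.30%, 7.81%, 1.79%, 7.15%, 3.65% and 8.36% of all windows. Besides Bcl2l1, Bmf held a match to the NF-kB consensus and 1 to the p53 half-site, and Bcl2l11 held GTAAACA.

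Mcl1 encodes a short-lived survival protein and had 11101, 12792, 9255 and 9794 normalized counts in libraries labelled cKO 1 to 4, against 9535, 10396, 8358 and 8956 in Ctrl libraries 1 to 4. The groups overlapped, with cKO replicates 1 and 2 above every Ctrl library. The log2 fold change was 0.20 ± 0.12 (limma adjusted p = 0.304), with an interval of the fold from 0.956 to 1.38. Bcl2, the founding member of the family and the main survival member in lymphocytes, had 362 to 416 normalized counts in libraries labelled cKO and 369 to 440.4 in Ctrl libraries. Its log2 fold change was -0.08 ± 0.10 (limma adjusted p = 0.678, interval of the fold 0.807 to 1.11). T cell markers summed to 162 to 653 normalized counts in libraries labelled cKO and 329 to 723 in Ctrl libraries. In bulk libraries, fewer cells of a type and less RNA per cell cannot be told apart.

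The effector Bak1 was close to the same in both groups on average but varied between mice. It had 3539, 2632, 4307 and 3349 normalized counts in libraries labelled cKO 1 to 4, against 2904, 4020.3, 3748 and 3193 in Ctrl libraries 1 to 4. The lowest and the highest of the 8 values both came from libraries labelled cKO, replicates 2 and 3. The log2 fold change was -0.01 ± 0.16 (limma adjusted p = 0.963), and the interval of the fold, 0.774 to 1.27, does not hold a doubling. The Bak1 locus (chromosome 17, 27019810 to 27029009, minus strand) lies inside Ggnbp1 on the other strand, listed under 2 identifiers at 36.4 and 2.20 normalized counts in libraries labelled cKO and 34.6 and 4.34 in Ctrl libraries. Whether the exons of the pair overlap was not checked. Without a statement that strand was used in counting, any reads that the pair shares cannot be told apart.

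Bax, the effector that works beside Bak1, and Bok, a related member, stood apart from Bak1 in this respect. Bax had 1800.1, 1883, 1556 and 2472 normalized counts in libraries labelled cKO 1 to 4, against 837, 946, 1173 and 898 in Ctrl libraries 1 to 4, with no overlap (log2 fold change 0.99 ± 0.15, limma adjusted p = 0.00743). Bok had 903 to 1504 in libraries labelled cKO and 452 to 550.3 in Ctrl libraries (1.08 ± 0.16, limma adjusted p = 0.00685). Per gene length, the Bak1 level was 0.887 to 1.81 times the Bax level in libraries labelled cKO and 2.09 to 2.78 times in Ctrl libraries. The ratio of Bcl2l1 to Bax was likewise 0.211 to 0.311 in libraries labelled cKO and 0.381 to 0.466 in Ctrl libraries. Both ratios were chosen after the values were seen and are given without a test.

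**Figure D3:**
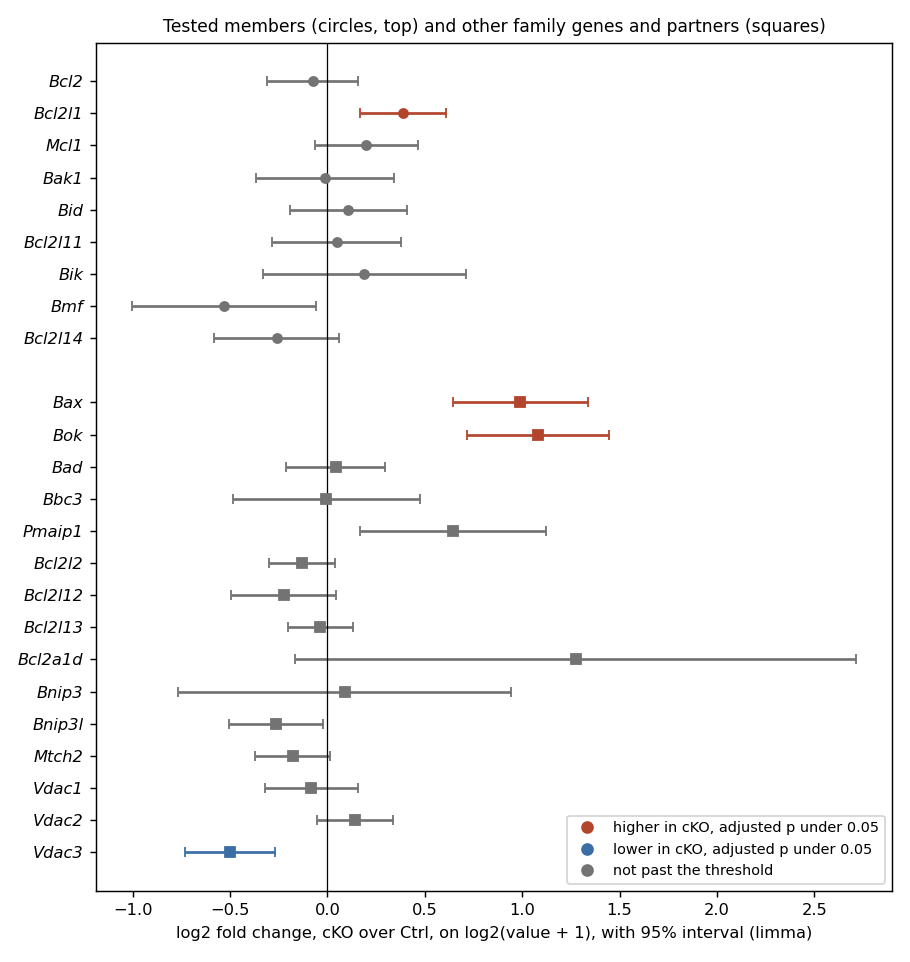
Log2 fold changes of cKO over Ctrl on the log2(value + 1) scale with 95% intervals from limma, for the 9 tested members (circles) and for 15 tested family relatives and mitochondrial partners (squares), coloured by call. Bcl2l1 (0.39) is the called member, beside Bax (0.99), Bok (1.08) and Vdac3 (-0.50) among the relatives and partners.

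Of the 4 BH3-only members, limma called 0, and 1, Bmf, was lower at an unadjusted p under 0.05. Of all 16536 tested genes, 2395 were lower at that p. DESeq2 and edgeR called 0 of the 4 as well. Bmf, whose protein is known to be held by the dynein light chain Dynll2 on the cytoskeleton, had 109.5, 209.6, 135 and 187 normalized counts in libraries labelled cKO 1 to 4, against 228, 231, 207 and 235 in Ctrl libraries 1 to 4. Of the libraries labelled cKO, 3 lay below every Ctrl library and replicate 2 lay within the Ctrl range. The coefficient of variation was 28.8% in libraries labelled cKO and 5.63% in Ctrl libraries. The log2 fold change of Bmf was -0.53 ± 0.21 (limma adjusted p = 0.134, interval of the fold 0.499 to 0.959). Without cKO replicate 2 Bmf passed the threshold (log2 fold change -0.68, limma adjusted p = 0.0474), and without any other library it did not. The authors' deposited table gave Bmf -0.49 with an adjusted p of 0.122.

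Bid, which caspase-8 cleaves to link death receptors to the mitochondrion, had 383 to 517 normalized counts in libraries labelled cKO and 346 to 461 in Ctrl libraries (log2 fold change 0.11 ± 0.13, limma adjusted p = 0.647, interval of the fold 0.874 to 1.33). Its last 913 bases overlap those of Bcl2l13 on the other strand, which had 1849 normalized counts in libraries labelled cKO and 1896 in Ctrl libraries, so the split between these genes is uncertain. Bcl2l11, which encodes Bim, had 283, 406, 292 and 323 in libraries labelled cKO 1 to 4 and 281, 287, 343 and 344 in Ctrl libraries 1 to 4. The fold of Bcl2l11 had an interval of 0.820 to 1.30 (log2 fold change 0.05 ± 0.15, limma adjusted p = 0.865). Bik, a BH3-only protein of the endoplasmic reticulum in human cells, was low at 48.2 to 90.7 in libraries labelled cKO and 48.7 to 66.2 in Ctrl libraries. Its interval was the widest of these, 0.794 to 1.64 (log2 fold change 0.19 ± 0.23, limma adjusted p = 0.642).

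FOXO factors are known to induce Bcl2l11, and its upstream start site is shown because that window held GTAAACA, in capitals, its first base at position -227 from the start site (RefSeq, GRCm38.p6, chr2:128125788-128126087, plus strand).
Bcl2l11 promoter window: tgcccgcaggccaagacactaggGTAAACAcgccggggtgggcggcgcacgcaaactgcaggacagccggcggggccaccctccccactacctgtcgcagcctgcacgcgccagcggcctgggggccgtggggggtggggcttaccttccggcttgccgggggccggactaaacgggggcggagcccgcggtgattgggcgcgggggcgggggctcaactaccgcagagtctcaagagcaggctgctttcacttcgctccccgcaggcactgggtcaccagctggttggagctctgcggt
Foxo1 and Foxo3 had log2 fold changes of -0.02 and -0.16 and did not pass the threshold (limma adjusted p = 0.913 and 0.461).

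Bcl2l14 (also known as Bcl-G) was lower on average in libraries labelled cKO without passing the test. It had 1076, 1761, 1372 and 1474 normalized counts in libraries labelled cKO 1 to 4, against 1594, 1542, 1748 and 1841 in Ctrl libraries 1 to 4. As for Bmf, 3 libraries labelled cKO lay below every Ctrl library and replicate 2 lay within the Ctrl range. The log2 fold change was -0.26 ± 0.14 (limma adjusted p = 0.262, interval of the fold 0.669 to 1.04).

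Bcl2l15 (chromosome 3, 103832601 to 103854618, plus strand) averaged 8.13 normalized counts over the 8 libraries, below the filter, and has no test with the reported settings. It had 28.3, 4.88, 10.0 and 12.8 normalized counts in libraries labelled cKO 1 to 4, against 4.87, 4.20, 0 and 0 in Ctrl libraries 1 to 4. The groups did not overlap, but cKO replicate 2 and Ctrl replicate 1 were almost level. Gm43064, a protein-coding gene on the same strand, overlaps 6048 bases of the Bcl2l15 locus. It averaged 0.474 normalized counts in libraries labelled cKO and 0.304 in Ctrl libraries. The part of this overlap in the Bcl2l15 counts was not tested. In recovered reads Bcl2l15 had 59 over the libraries labelled cKO and 8 over the Ctrl libraries, 7.48 times as many after division by the groups' total reads (exact 95% interval 3.56 to 18.1, which covers counting error only). Replicate 1 held 31 of the 59 reads of the libraries labelled cKO, and without it the ratio was 4.79 (2.13 to 12.2). Leaving out a Ctrl library gave 11.9 without replicate 1, 11.5 without replicate 2, 5.40 without replicate 3 and 5.35 without replicate 4. With no filter on low values its log2 fold change was 2.44 and its limma adjusted p 0.0613, and with 5 added in place of 1 the log2 difference was 1.32. The authors' deposited table gave Bcl2l15 a log2 fold change of 2.70 and an adjusted p of 0.0403.

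TDP-43 protein is known to prefer repeats of UG in RNA, so the protein-coding GENCODE M21 transcripts of the members were searched for runs of alternating T and G. Runs of at least 20 bases were found in 4 of 10 members, against 4.23% of 21877 protein-coding genes. These members are Bcl2, Bcl2l11, Bmf and Bcl2l15, and for each 30 bases are shown with the run in capitals (GRCm38, sequence as T).
Bmf, 5' UTR, chr2:118547467-118547496, minus strand, run of 27 bases: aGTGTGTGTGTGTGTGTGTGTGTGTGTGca
Bcl2l15, 3' UTR, chr3:103853713-103853742, plus strand, run of 24 bases: gtaTGTGTGTGTGTGTGTGTGTGTGTGcaa
Bcl2, 3' UTR, chr1:106711173-106711202, minus strand, first 30 of 32 bases: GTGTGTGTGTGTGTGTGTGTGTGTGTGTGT
Bcl2l11, 3' UTR, chr2:128160811-128160840, plus strand, first 30 of 50 bases: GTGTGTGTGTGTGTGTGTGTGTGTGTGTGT
The called member, Bcl2l1, had a longest run of 8 bases in its 3' UTR, Mcl1 had 10 and Bcl2l14 had 8. The letters TGTGTG were not found in Bak1 or Bik. Each run is in at least 1 transcript of its gene and need not be in all of them, introns were not searched, and binding was not tested.

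The genes around the family changed in part. Their lists were chosen with earlier results of these data known, and none was tested as a set. Over all tested genes, limma called 5.65% higher and 6.07% lower. Of 15 tested relatives and mitochondrial partners of 19 listed, 2 rose (Bax and Bok) and 1 fell, with a median log2 fold change of -0.01. At an unadjusted limma p under 0.05, 3 of the 15 were higher and 2 lower, against 2275 and 2395 of the 16536 tested genes. For the same list edgeR called 2 higher and 1 lower, and DESeq2 called 3 and 1. Over all tested genes edgeR called 988 higher and 914 lower, and DESeq2 called 1509 and 1492. The gene called lower by limma was Vdac3, an outer membrane channel. Vdac3 had 3611 to 4660 normalized counts in libraries labelled cKO and 5516 to 6605 in Ctrl libraries (log2 fold change -0.50 ± 0.10, limma adjusted p = 0.0170). Without Ctrl replicate 3 the call of Vdac3 was lost (limma adjusted p = 0.0555). The p53-induced BH3-only genes Pmaip1 (Noxa) and Bbc3 (Puma) had log2 fold changes of 0.65 and -0.01 and did not pass (limma adjusted p = 0.0808 and 0.989). Bcl2a1a and Bcl2a1b, which have near-identical copies, were below the filter.

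Of 15 tested genes of the apoptosome, caspases and their inhibitors, 2 rose and 0 fell, with a median log2 fold change of -0.0022. The shares over all tested genes were 5.65% higher and 6.07% lower. At an unadjusted limma p under 0.05, 3 of the 15 were higher and 1 lower, against 2275 and 2395 of the 16536 tested genes. Here edgeR and DESeq2 each called 3 higher and 0 lower. Over all tested genes edgeR called 988 higher and 914 lower, and DESeq2 called 1509 and 1492. Apaf1, the scaffold of the apoptosome, had 3485, 3624, 2938 and 2520.0 normalized counts in libraries labelled cKO 1 to 4, against 1490.4, 1576, 1228 and 1266 in Ctrl libraries 1 to 4 (log2 fold change 1.17 ± 0.13, limma adjusted p = 0.00287). Dffb, the nuclease that cuts DNA in apoptosis, rose (0.47 ± 0.10, limma adjusted p = 0.0236). Dffb lost its call without cKO replicate 1, 3 or 4 or Ctrl replicate 1, 3 or 4 (limma adjusted p from 0.0515 to 0.0686) and with no filter on low values (0.0541). Cycs (cytochrome c) and Casp9 had log2 fold changes of 0.08 and -0.11, and the caspase inhibitor Xiap had -0.0022, none past the threshold.

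Of 11 tested genes of the death receptor arm that leads to Bid, 3 rose and 0 fell (median -0.04). The shares over all tested genes were 5.65% higher and 6.07% lower. At an unadjusted limma p under 0.05, 4 of the 11 were higher and 2 lower, against 2275 and 2395 of the 16536 tested genes. From this list edgeR and DESeq2 each called 3 higher and 0 lower. Over all tested genes edgeR called 988 higher and 914 lower, and DESeq2 called 1509 and 1492. The ligand Tnf had 247 to 357 normalized counts in libraries labelled cKO and 56.8 to 138 in Ctrl libraries (log2 fold change 1.65 ± 0.29, limma adjusted p = 0.0112). Macrophage and dendritic cell markers summed to 376 to 695 normalized counts in libraries labelled cKO and 226 to 400.3 in Ctrl libraries, and their part in the Tnf values was not tested. Its receptor Tnfrsf1a (0.35, limma adjusted p = 0.0198) and Casp8 (0.61, limma adjusted p = 0.0205) rose too, while the inhibitor Cflar had 0.09 and did not pass. The call of Tnfrsf1a was lost without cKO replicate 1 (limma adjusted p = 0.0526) or Ctrl replicate 1 (0.0531) or 4 (0.0572), and that of Casp8 without Ctrl replicate 3 (0.0646) or 4 (0.0540).

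Of 17 tested regulators of Bcl2 family genes and proteins, 4 rose and 0 fell (median 0.17), against 5.65% and 6.07% of all tested genes. At an unadjusted limma p under 0.05, 5 were higher and 1 lower, against 2275 and 2395 of the 16536 tested genes. Among the regulators edgeR called 4 higher and 0 lower, and DESeq2 called 5 and 1. Over all tested genes edgeR called 988 higher and 914 lower, and DESeq2 called 1509 and 1492. Dynll1, the dynein light chain known to hold Bim, had 4792 to 6155 normalized counts in libraries labelled cKO and 3358 to 3952 in Ctrl libraries (log2 fold change 0.49 ± 0.10, limma adjusted p = 0.0197). Rela, a subunit of NF-kB, which is known to induce Bcl2l1, rose (0.39 ± 0.10, limma adjusted p = 0.0349), as did Mdm2, the p53 antagonist (0.49, limma adjusted p = 0.0293). Dynll1 lost its call without Ctrl replicate 3 (limma adjusted p = 0.0618) or 4 (0.0569). Rela and Mdm2 kept theirs without cKO replicate 2 or 3 and lost it without any 1 of the other 6 libraries (limma adjusted p from 0.0572 to 0.0890 for Rela and from 0.0631 to 0.0777 for Mdm2). Rela also lost its call with no filter on low values (0.0544). The remaining one was Myc (0.47, limma adjusted p = 0.0393), named after its values were seen. Myc lost its call without cKO replicate 1 (limma adjusted p = 0.0702) or 2 (0.0525) and without Ctrl replicate 1 (0.0848), 2 (0.0975), 3 (0.0898) or 4 (0.0725). Trp53 itself had 0.20 and Stat3 0.28, neither past the threshold (limma adjusted p = 0.293 and 0.0693).

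The libraries labelled cKO differed among themselves, and several members shared an order of these libraries. The difference was not limited to the family. On the second principal component cKO replicate 1 lay at 40.42 and cKO replicate 2 at -47.67, with replicates 3 and 4 between them. Bcl2l11, Bmf and Bcl2l14 had the same order of the 4 libraries labelled cKO, with replicate 1 lowest, then 3, 4 and 2. Of the 6 tested markers of mature absorptive cells, 2 had that order too, namely Slc26a3 and Car4, an anion exchanger and a carbonic anhydrase. Aqp8, Alpi and Ceacam20 were highest in cKO replicate 2 as well but in other orders, and Fabp2, a fatty acid binding protein, was highest in cKO replicate 3. Fabp2 was the marker called in this list, with 1693 to 4182 normalized counts in libraries labelled cKO and 5300 to 7418 in Ctrl libraries (log2 fold change -1.45 ± 0.27, limma adjusted p = 0.0141). Slc26a3 had 5724, 26833, 10098 and 11602 normalized counts in libraries labelled cKO 1 to 4, against 9848, 9781, 8683 and 17123 in Ctrl libraries 1 to 4. Among the Ctrl libraries Slc26a3 and Bmf were both lowest in replicate 3 and highest in replicate 4, whereas Bcl2l14 was lowest in replicate 2.

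Bcl2l1, Mcl1 and Bik shared another order, with cKO replicate 3 lowest, then 4, 1 and 2. Bak1 and Bid shared the order 2, 4, 1 and 3, as did 3 of 5 stem cell markers, Lgr5, Ascl2 and Axin2. Lgr5, a receptor of crypt stem cells, had 231, 30.2, 281 and 210.0 normalized counts in libraries labelled cKO 1 to 4 and 260.5 to 455 in Ctrl libraries. The 5 stem cell markers summed to 1270 to 2626 normalized counts in libraries labelled cKO and 2609 to 3361 in Ctrl libraries. The marker of this list that was called, Olfm4, went the other way, with 16.6 to 43.8 normalized counts in libraries labelled cKO and 3.79 to 9.73 in Ctrl libraries (log2 fold change 1.49 ± 0.41, limma adjusted p = 0.0484). Lgr5, Smoc2, Ascl2 and Axin2 had log2 fold changes of -1.13, -1.05, -0.10 and -0.24 and were not called. The orders were noticed after the values were seen, and the part of cell makeup in the members' values was not tested. The share of all tested genes with each order was not counted, so whether the members share orders more often than other genes was not tested.

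**Figure D4:**
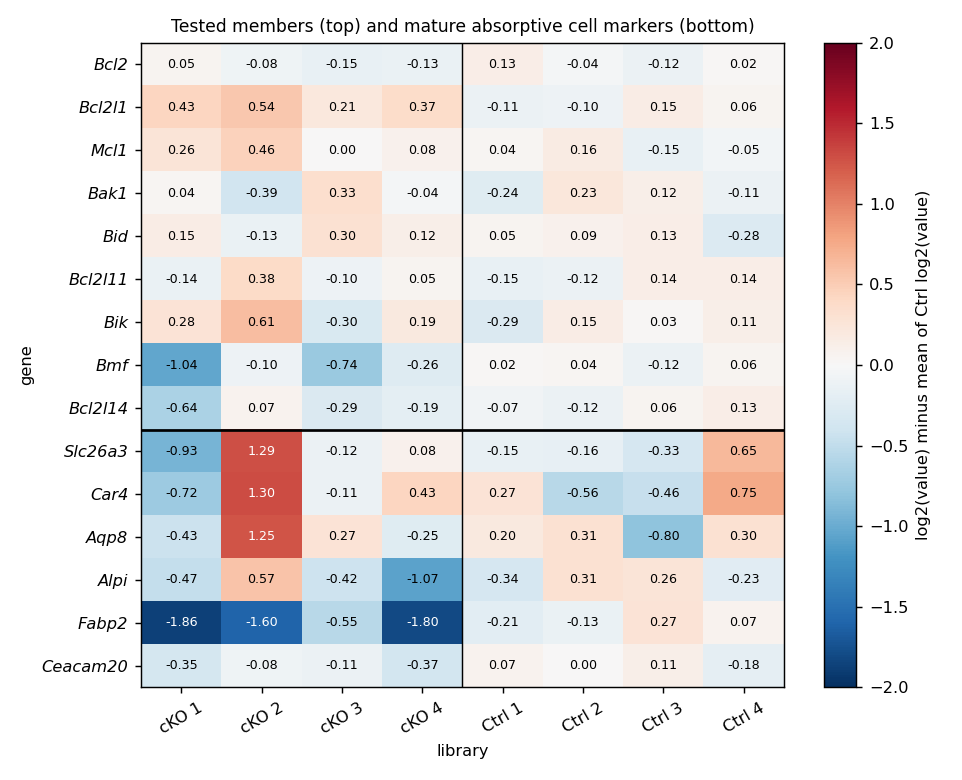
Log2 value of each tested member (top) and of 6 mature absorptive cell markers (bottom) in each library, minus the mean of the 4 Ctrl libraries, with libraries labelled cKO left of the line and Ctrl libraries right of it. In cKO replicate 1 Bmf (-1.04), Bcl2l14 (-0.64) and Slc26a3 (-0.93) were low, and in cKO replicate 2 Slc26a3 was high (1.29) while Bmf (-0.10) and Bcl2l14 (0.07) lay near the Ctrl mean and Fabp2 was low (-1.60).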

How the data were processed

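RNA of crypt epithelium from 4 cKO and 4 Ctrl mice was measured, groups following the sample titles. The submitters' processing notes name CASAVA, HISAT2 2.0.5 and featureCounts 1.5.0-p3, but the sources used here give no build, annotation or use of strand. Coordinates of all 10 members equal those of GENCODE M21 on GRCm38. The signal that the authors deposited for each gene and library is a gene count over a library factor: every value (100%) was a whole multiple of its library's smallest value, within 0.0001 reads. The authors' deposited table holds its own log2 fold changes, each with a p-value before and after adjustment, from a test it does not name.

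Genes with a mean of at least 10 were tested with limma 3.58.1 (trend and robust eBayes, two-sided) on log2(value + 1), group as the only term, Benjamini-Hochberg over 16536 genes. The added 1 pulls fold changes of low genes toward 0. On recovered reads, edgeR 4.0.16 (TMM, quasi-likelihood) and DESeq2 1.42.0 were alternatives, beside other pseudocounts, filters, scalings, a replicate block and leaving out each library. Of the tests, limma alone was tried on simulated data. All 10 members are described. Tardbp was meant as the check of the labels, but its value covers the whole gene and could not check the deleted part. From each pathway list the 3 called genes with the smallest adjusted p per direction are named, and others were named after their values were seen. Hrk and March5 are not analysed here, and some genes of the caspase list are not reported here. Members and lists were chosen with earlier results of these data known. Libraries of a group differed by more than sampling noise (smallest chi-square per degree of freedom 26.1). Fits ran in R 4.3.3 and all else in Python 3.11.15 (pandas 2.3.3, numpy 2.4.6, scipy 1.17.1, matplotlib 3.10.9).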

Additional observations from a re-analysis of the deposited data

Results flagged for a closer look

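In groups of 4 libraries, 2 values lay far from the other 3 of their group, both in pathway genes and none in a member. Bok had 1504 normalized counts in cKO replicate 1, against 903 to 995 in the other libraries labelled cKO. Dynll1 had 6155 in cKO replicate 1, against 4792 to 4974 in the others. These are 2 of 42 groups looked at, over 21 genes, and chance flags about 1 in 20 such groups.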

How the results depend on the processing

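Over 18 other settings, of which 8 leave out 1 library each, 342 of 396 values of single tested genes kept direction and side of the threshold, 44 kept direction and lost the call, 1 gained it and 9 changed sign. Bcl2l1, with a log2 fold change of 0.39, lost its call with no filter on low values (0.39, limma adjusted p = 0.0567). It also lost its call with a replicate block (0.39, limma adjusted p = 0.0789). Both settings left 0 members called higher. Without 1 library the log2 fold change of Bcl2l1 was 0.34 to 0.45. Whether the replicate numbers pair the mice is unsettled: same-numbered libraries had correlations of 0.318, -0.106, 0.123 and 0.323, libraries labelled cKO 1, 3 and 4 correlated best with their own number and 2 did not, and the labels give no pairing. With the block 821 genes were higher and 924 lower, 1 apoptosome gene was higher and 1 death receptor gene lower, and Myc and Dffb lost their calls (adjusted p = 0.0615 and 0.0576).

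Bcl2 changed sign with library totals (0.0052), and Bak1 with library totals (0.067), upper-quartile scaling (0.0015) and edgeR (0.0037). Without 1 library Bak1 had -0.13 to 0.11, Bcl2l11 -0.063 to 0.11 and Bmf -0.68 to -0.37. No filter left 1 apoptosome gene higher. DESeq2 called 1509 genes higher and 1 regulator lower.

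Without 1 library, 379 to 1347 genes were higher and 390 to 1385 lower, the most without cKO replicate 2 and the fewest without Ctrl replicate 3. Members called were 0 to 1 higher and 0 to 1 lower, relatives and partners 2 to 3 higher and 0 to 2 lower, apoptosome genes 1 to 2 higher and 0 lower, death receptor genes 1 to 3 higher and 0 to 1 lower, and regulators 0 to 4 higher and 0 lower. The cause of these changes was not tested. Few reads were recovered over the Ctrl libraries for Bcl2l15, with 8, and for Bik, with 239.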

Other observations

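The Bcl2a1 genes, antiapoptotic relatives known from myeloid cells, were detected at low levels and have near-identical copies among which reads can be split. Bcl2a1d had 28.3, 13.7, 16.1 and 24.5 normalized counts in libraries labelled cKO 1 to 4, against 1.22, 8.40, 19.9 and 11.6 in Ctrl libraries 1 to 4 (log2 fold change 1.27 ± 0.64, limma adjusted p = 0.228). The groups overlapped through Ctrl replicate 3. Bcl2a1b, below the filter, had 5.85 to 13.7 normalized counts in libraries labelled cKO and 0 to 5.34 in Ctrl libraries. The neutrophil marker Csf3r had 23.4 to 310.1 normalized counts in libraries labelled cKO and 3.65 to 34.7 in Ctrl libraries, and its part in the Bcl2a1 values was not tested.

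Upstream of Bid, the death ligand Tnfsf10 (TRAIL) had 541, 454, 1506 and 342 normalized counts in libraries labelled cKO 1 to 4, against 1981, 2767, 1581 and 988 in Ctrl libraries 1 to 4. Its log2 fold change of -1.52 ± 0.48 did not pass the threshold (limma adjusted p = 0.0801), with cKO replicate 3 inside the Ctrl range. The receptor Fas had 125 to 280.1 normalized counts in libraries labelled cKO and 234 to 360.0 in Ctrl libraries (log2 fold change -0.60 ± 0.25, limma adjusted p = 0.151). Dynll2, the light chain that holds Bmf, had 5305 to 6184 normalized counts in libraries labelled cKO and 6096 to 7443 in Ctrl libraries and did not pass the threshold either (log2 fold change -0.27 ± 0.09, limma adjusted p = 0.0882).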
